A study of Sus scrofa with 22 samples.

Results

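The swine leukocyte antigen (SLA) class II genes of the small intestine were followed in 22 piglets given chemotherapy or left untreated. The members are all probes whose sequence accession maps to a pig gene symbol that starts with SLA-D. The rule took 30 of the 43603 probes on the array, for 8 genes: 7 probes each for SLA-DRA and SLA-DQA1, 4 each for SLA-DRB1 and SLA-DQB1, and 2 each for SLA-DMA, SLA-DMB, SLA-DOA and SLA-DOB. All 30 passed the filter on dim probes, which kept 31758 probes. The 22 piglets were crossbred SPF (specific pathogen free) Large White × Danish Landrace animals, 3 days old per the labels. They came from separate experiments, one with a single dose of doxorubicin (DOX), a topoisomerase II inhibitor, and one with busulfan and cyclophosphamide (BUCY), which alkylate DNA. The groups were DOX treated (n = 6), DOX untreated (n = 6), BUCY treated (n = 5) and BUCY untreated (n = 5). Drugs were given into a jugular vein catheter, and all piglets had suckled their mother from birth. Doses, sampling time and the stretch of small intestine taken were not analysed here.

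MHC class II molecules present peptides from internalised protein to CD4+ T cells. Each is a pair of an alpha and a beta chain: SLA-DRA with SLA-DRB1, and SLA-DQA1 with SLA-DQB1. The invariant chain CD74 guards the peptide groove during transport, as worked out in human and mouse, DM (here SLA-DMA with SLA-DMB) exchanges the last invariant chain fragment for peptide, and DO (here SLA-DOA with SLA-DOB) restrains DM. B cells, dendritic cells and macrophages carry these molecules at all times, and in pigs part of the T cells do as well. Other cells, the gut epithelium among them, make them under interferon gamma through the coactivator CIITA.

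The 8 genes lie on chromosome 7 in the order SLA-DRA, SLA-DRB1, SLA-DQA1, SLA-DQB1, SLA-DOB, SLA-DMB, SLA-DMA and SLA-DOA (RefSeq, Sscrofa11.1). The same annotation has 12 SLA-D symbols, of which 4 are pseudogenes without a probe assigned here. Class II genes differ between haplotypes and share long stretches of sequence. Signal can therefore pass between probes of close genes and pseudogenes, and a probe can bind the alleles of different piglets unequally. The piglets' haplotypes and the probe sequences were not used here.

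Values are log2 ratios of the RNA of 1 piglet (Cy5) over a pool of all samples (Cy3) hybridised to the same array, so 0 means the level of the pool. Levels of different genes or probes cannot be ranked on this scale. On a single array 59.7% to 72.5% of probes were well above background in Cy5. Precision is limited by the number of arrays. Of the 30 class II probes, 27 were well above background on all 22 arrays. The exceptions were the dimmer SLA-DMB probe (21 arrays) and the SLA-DOB probes (19 and 11 arrays). As a check of the tissue, 5 of 11 listed enterocyte markers were tested, among them the fatty acid binding protein FABP1. All 5 were well above background on all 22 arrays. So were 23818 of the 31758 tested probes, so this count says little about the tissue. Of 3 pancreas genes on the array, CPA1 was well above background on 21 arrays, PNLIP on 4 and CPB1 on 1. BUCY treated replicates 2 and 3 stood apart on the second principal component, at 71.5 and 86.3 against -51.5 to 32.3 on the other 20 arrays. Replicate 3 had the lowest median Cy5 signal of the 22 arrays, 88 against 103.5 to 210 on the others. Replicate 2 had the lowest of scan day 1, 135 against 165 to 210. Their class II values were the lowest of their group for most genes, so class II counts and gene differences are also given without both. The results of other genes, the contrasts within a piglet and the correlations include both.

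After BUCY, class II RNA was lower across the family. All 30 probes were lower in the mean of BUCY treated piglets than in BUCY untreated piglets, and 25 of 30 fell at a limma adjusted p under 0.05. Over all tested probes 9.97% were called lower and 19.1% in either direction. The test used 1 estimate of spread shared by the 4 groups. With only the BUCY groups in the fit, 22 of 30 probes were called, against 1462 of all 31758 in either direction. The median of the 30 log2 differences was -1.40, from -1.79 to -0.04, beside a median of 0.00 over all tested probes. In 23 of 30 probes the groups did not overlap, against 3.65% of all probes with such a gap in the lower direction. Of the 8 genes, each represented by its brightest probe, 7 fell; SLA-DOB was not called. In bulk tissue fewer class II-bearing cells and less class II RNA per cell cannot be told apart.

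**Figure D1:**
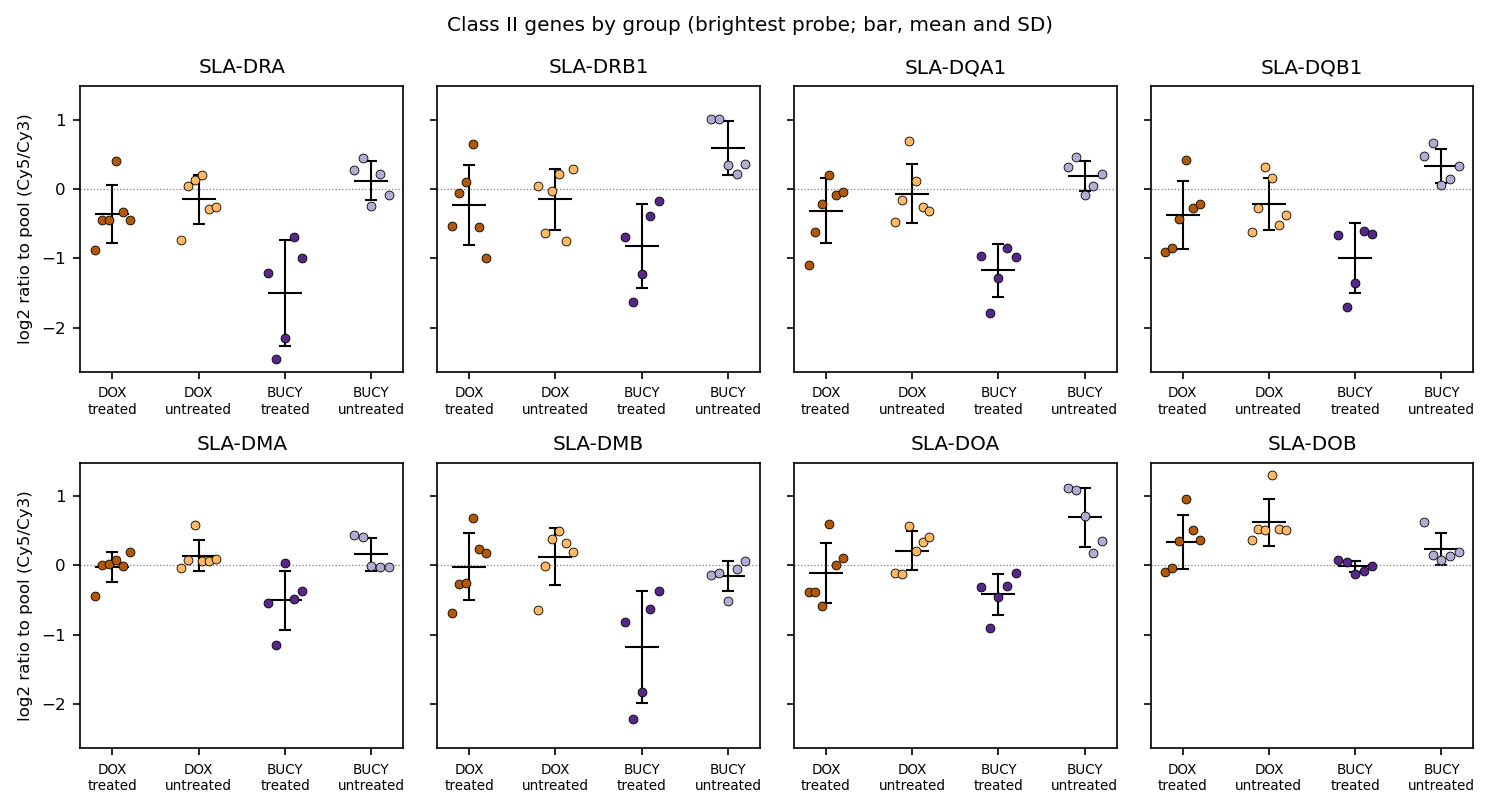
Log2 ratio to the pool (vertical axis) of the brightest probe of each class II gene in the 4 groups; each point is 1 piglet, and bars show the mean and SD. For SLA-DRA the BUCY treated piglets lie between -2.45 and -0.70 and the BUCY untreated piglets between -0.25 and 0.44, while the DOX groups overlap.

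SLA-DRA, the alpha chain of the DR molecule, measured -1.21, -2.45, -2.15, -0.70 and -1.0 in the 5 BUCY treated piglets, against 0.27, 0.44, -0.25, 0.22 and -0.09 in the 5 BUCY untreated piglets. Every treated piglet lay below every untreated piglet, and replicates 2 and 3 were lowest. The gene was 3.07-fold lower (log2 difference -1.62, SE 0.283, limma adjusted p = 6.47e-04), which leaves 32.6% of the untreated level. The SE and adjusted p rest on the spread shared by the 4 groups. The SD was 0.760 in BUCY treated piglets and 0.280 to 0.420 in the other groups. Its 7 probes gave differences of -1.79 to -1.48, and all 7 were called.

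SLA-DRB1, the polymorphic beta chain that pairs with it, measured -0.69, -1.64, -1.23, -0.39 and -0.18 in BUCY treated piglets, against 1.02, 1.01, 0.34, 0.21 and 0.37 in BUCY untreated piglets. The groups did not overlap, although the gap between treated replicate 5 and untreated replicate 4 was small. The difference was -1.41 (SE 0.302, 2.67-fold lower, limma adjusted p = 0.00317), and its 4 probes, all called, lay between -1.73 and -1.35.

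SLA-DQA1, the alpha chain of the DQ molecule, measured -0.97, -1.80, -1.28, -0.85 and -0.99 in BUCY treated piglets, against 0.32, 0.47, -0.08, 0.05 and 0.21 in BUCY untreated piglets. The treated piglets were all below the untreated ones, with the SD within the treated group (0.381) the smallest of the DR and DQ genes. The difference was -1.37 (SE 0.233, 2.58-fold lower, limma adjusted p = 5.43e-04). Of 7 probes 6 were called, and the dimmest was not (-1.31, limma adjusted p = 0.109). That probe measured -0.36, -1.85, -1.83, -0.42 and -1.49 in BUCY treated piglets, against -0.86, 0.49, -1.34, 1.26 and 1.08 in BUCY untreated piglets. Its within-group SD of 0.977 was the widest of the 30 probes, and its groups overlapped.

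SLA-DQB1, the DQ beta chain, measured -0.66, -1.70, -1.36, -0.61 and -0.65 in BUCY treated piglets, against 0.47, 0.67, 0.05, 0.14 and 0.33 in BUCY untreated piglets. Replicates 2 and 3 were again lowest, and the other treated piglets lay close together, below all untreated ones. The difference was -1.33 (SE 0.248, 2.51-fold lower, limma adjusted p = 0.00110). Of its 4 probes 3 were called, and the dimmest was not (-0.74, limma adjusted p = 0.159). One BUCY untreated piglet measured 1.47 on that dimmest probe.

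By the brightest probe of each gene, the chains of the loading molecules had smaller log2 differences than the DR and DQ chains, a contrast that was not tested. These probes were also dimmer, with a mean log2 intensity of 6.74 to 11.93 against 12.94 to 13.83 for DR and DQ. A dim probe can understate a difference. SLA-DMB, the beta chain of the peptide exchanger, measured -0.81, -2.22, -1.83, -0.63 and -0.37 in BUCY treated piglets, against -0.14, -0.11, -0.51, -0.05 and 0.07 in BUCY untreated piglets. Treated replicate 5 overlapped the untreated range, and replicates 2 and 3 lay far below the other treated piglets. The difference was -1.03 (SE 0.304, 2.04-fold lower, limma adjusted p = 0.0226). The call was lost without replicate 2 (-0.76, adjusted p = 0.0842) or replicate 3 (-0.86, adjusted p = 0.0746), and the dimmer probe did not pass (-0.81, adjusted p = 0.0837).

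SLA-DMA, the alpha chain of that exchanger, measured -0.54, -1.14, 0.04, -0.49 and -0.37 in BUCY treated piglets, against 0.44, 0.41, -0.01, -0.02 and -0.02 in BUCY untreated piglets. Treated replicate 3 lay among the untreated piglets and the other 4 below them. The difference was -0.66 (SE 0.172, 1.58-fold lower, limma adjusted p = 0.0111). The dimmer probe gave -1.03 (limma adjusted p = 0.00304). The probes disagreed most in replicate 3, which the dimmer one placed at -1.26, while the brighter one placed it at 0.04.

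SLA-DOA, a chain of the DM regulator, measured -0.30, -0.90, -0.46, -0.29 and -0.12 in BUCY treated piglets, against 1.12, 1.09, 0.71, 0.18 and 0.36 in BUCY untreated piglets. The groups did not overlap, and untreated replicates 1 and 2 were highest, as they were for the DR and DQ genes and SLA-DMA. Both were on slide 2, which held no BUCY treated piglet. Their mean over the class II genes was 0.52 each, against 0.04 to 0.18 in the other BUCY untreated piglets. The difference was -1.11 (SE 0.218, 2.15-fold lower, limma adjusted p = 0.00167), and its other probe gave -1.10.

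SLA-DOB, the partner of SLA-DOA, was dim. Its brighter probe measured 0.08, 0.05, -0.12, -0.07 and -0.00 in BUCY treated piglets, against 0.63, 0.15, 0.08, 0.14 and 0.20 in BUCY untreated piglets. It was well above background in 2 of 5 treated and 5 of 5 untreated piglets. The difference of -0.25 (95% interval -0.62 to 0.12, limma adjusted p = 0.334) did not pass the test. The dimmer probe was not well above background in any BUCY treated piglet and gave a difference of -0.04 (limma adjusted p = 0.752). A difference in SLA-DOB of the size seen for SLA-DOA lies outside the interval of the brighter probe, which near background can understate a difference.

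**Figure D2:**
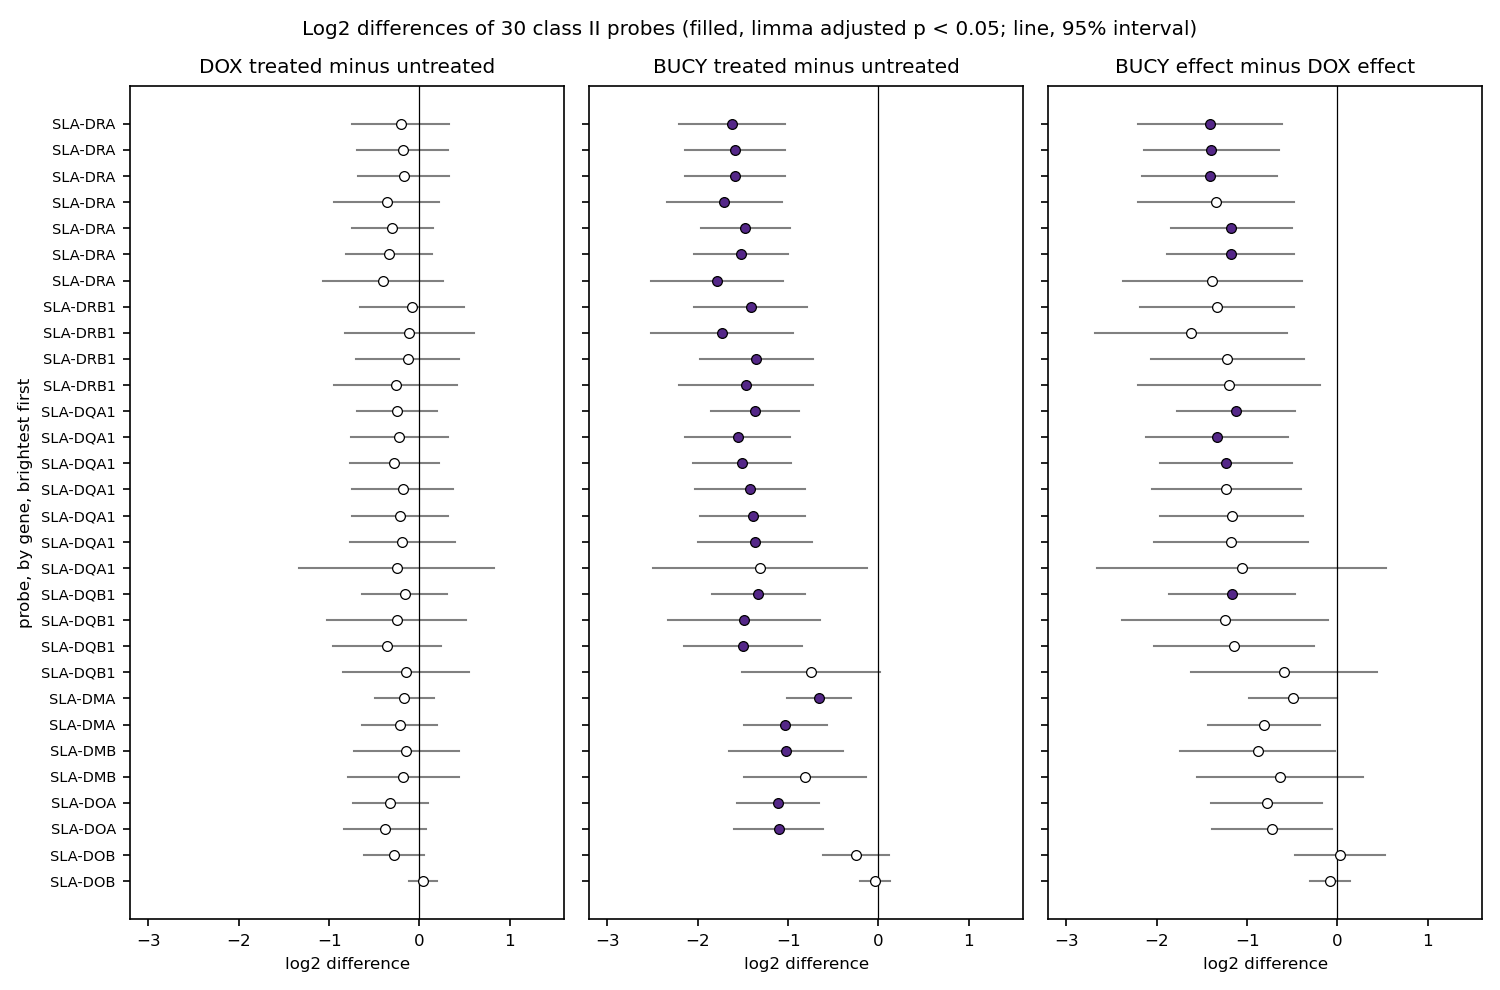
Log2 differences (horizontal axis) of the 30 class II probes, grouped by gene from top to bottom with the brightest probe first, for DOX treated minus untreated, BUCY treated minus untreated, and the difference of these effects. Points are limma estimates, lines 95% intervals, and filled points have an adjusted p under 0.05: 0 of 30 for DOX, 25 for BUCY and 9 for the difference.

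The 22 DR and DQ probes had a median BUCY difference of -1.48 (20 called), and the 8 DM and DO probes one of -0.92 (5 called). The DM and DO probes include those of SLA-DOB, which lay near background. Within a piglet, the mean of the 4 DR and DQ genes minus the mean of the DM genes averaged -0.29 ± 0.20 in BUCY treated and 0.30 ± 0.13 in BUCY untreated piglets (SD, n = 5 each). The 5 treated values, from -0.61 to -0.08, lay below the 5 untreated values, from 0.18 to 0.50. The lowest was that of BUCY treated replicate 3. It rests on the brighter SLA-DMA probe, and the dimmer SLA-DMA probe placed that piglet far lower. In the DOX experiment the same quantity averaged -0.30 ± 0.23 in treated and -0.28 ± 0.20 in untreated piglets (SD, n = 6 each). These contrasts within arrays were chosen after the values were seen and were not tested.

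Without BUCY treated replicates 2 and 3, 17 of 30 probes were called and the median difference was -1.05. Over all 31758 tested probes 1853 were then called in either direction. SLA-DRA (-1.09, limma adjusted p = 0.00886), SLA-DQA1 (-1.13, adjusted p = 0.0101), SLA-DQB1 (-0.97, adjusted p = 0.0238), SLA-DMA (-0.63, adjusted p = 0.0179) and SLA-DOA (-0.93, adjusted p = 0.0278) kept their calls. SLA-DRB1 (-1.01, adjusted p = 0.0625) and SLA-DMB (-0.46, adjusted p = 0.366) lost theirs. A fixed slide block takes BUCY treated replicate 2 out of the comparison because it was alone on slide 4. With slide as a fixed block 18 of 30 probes were called, against 3518 of all 31758 in either direction. SLA-DRB1 (-1.03, adjusted p = 0.0662), SLA-DMB (-0.69, adjusted p = 0.0735) and SLA-DMA (-0.38, adjusted p = 0.0649) then lost their calls. On the 3 slides that held both BUCY groups, the median difference of the 8 genes was -0.80 (slide 3, 1 piglet in each group), -1.07 (slide 5, 2 treated and 1 untreated) and -0.51 (slide 7, 1 in each group). All 8 genes were lower in the treated piglets of slides 5 and 7, and 7 of 8 on slide 3. On scan day 1 the median was -1.58 (2 treated and 3 untreated). The BUCY piglets of day 2 were those of slide 5 and the BUCY piglets of day 3 those of slide 7, so these days add no further comparison.

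**Figure D3:**
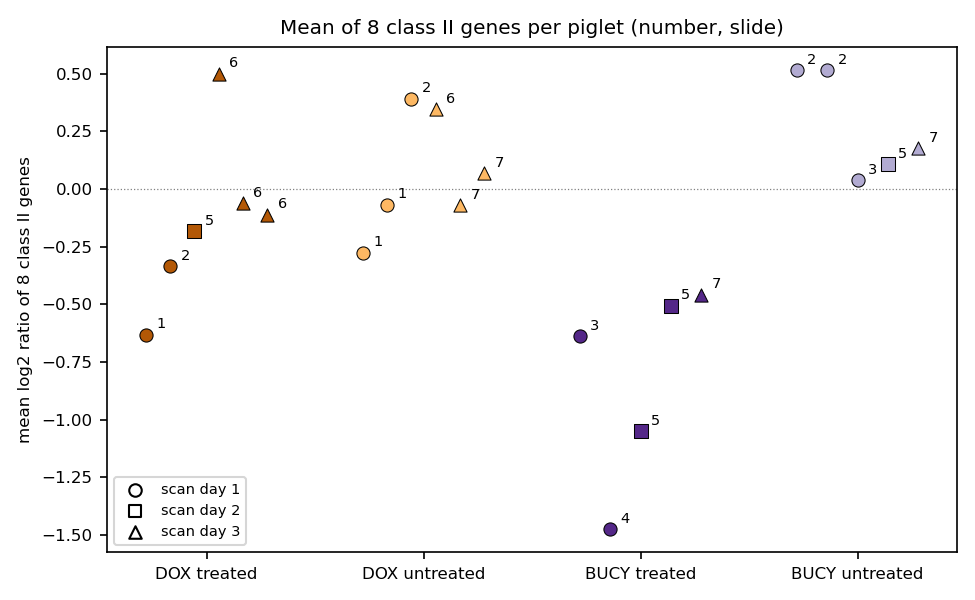
Mean log2 ratio of the 8 class II genes in each piglet (vertical axis) by group, with the slide number beside the point and the scan day as its shape. BUCY treated piglets lie between -1.48 and -0.46 and BUCY untreated piglets between 0.04 and 0.52, with treated replicates 2 (slide 4) and 3 (slide 5) lowest.

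After DOX no class II change was called. Of 30 probes 29 were lower in the mean of DOX treated piglets, with a median difference of -0.22 (from -0.40 to 0.04), but limma called 0, against 1.06% of all tested probes, and the lowest adjusted p was 0.441. That median was -0.09 without DOX treated replicate 1, -0.13 without DOX untreated replicate 3, -0.34 without DOX treated replicate 4, -0.40 with slide as a fixed block and -0.38 with median centring. In 0 of 30 probes were the groups apart, against 2.76% of all probes. At an unadjusted p under 0.05 the count was also 0 of 30, against 14.4% of all probes. SLA-DRA ranged from -0.88 to 0.41 (median -0.45) in 6 DOX treated piglets, against -0.73 to 0.21 (median -0.11) in 6 DOX untreated piglets. The groups overlapped, and DOX treated replicate 4 was the highest of the experiment. The difference was -0.21 with a 95% interval of -0.74 to 0.33, which holds no change, a decrease of up to 0.74 and an increase of up to 0.33.

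The other classical chains gave the same picture. SLA-DRB1 ranged from -1.0 to 0.65 (median -0.30) in DOX treated piglets, against -0.75 to 0.29 (median 0.00) in DOX untreated piglets. Its difference of -0.08 (interval -0.66 to 0.49) changed sign without DOX treated replicate 6 or DOX untreated replicate 6, at 0.07 and 0.00. SLA-DQA1 ranged from -1.10 to 0.21 (median -0.16) in treated piglets, against -0.48 to 0.69 (median -0.21) in untreated piglets, with a difference of -0.25 (interval -0.69 to 0.20). SLA-DQB1 ranged from -0.91 to 0.42 (median -0.35) in treated piglets, against -0.62 to 0.31 (median -0.32) in untreated piglets, with a difference of -0.16 (interval -0.63 to 0.31). The groups overlapped for all 3 genes.

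Among the DM and DO chains, SLA-DOA ranged from -0.58 to 0.59 (median -0.19) in DOX treated piglets, against -0.12 to 0.56 (median 0.27) in DOX untreated piglets. Its difference of -0.32 (interval -0.74 to 0.09, limma adjusted p = 0.487) was the largest in size of the 8 genes and did not pass. SLA-DMA (-0.17), SLA-DMB (-0.14) and SLA-DOB (-0.28) also had intervals that included 0. Slides 1, 2 and 6 held both DOX groups. The median of the 8 genes there was -0.47 (slide 1, 1 treated and 2 untreated), -0.61 (slide 2, 1 in each group) and -0.16 (slide 6, 3 treated and 1 untreated). By scan day it was -0.49 on day 1 (2 treated and 3 untreated), with 8 of 8 genes lower. On day 3 (3 in each group) it was 0.00, with 4 of 8 lower. Day 2 held no DOX untreated piglet.

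**Figure D4:**
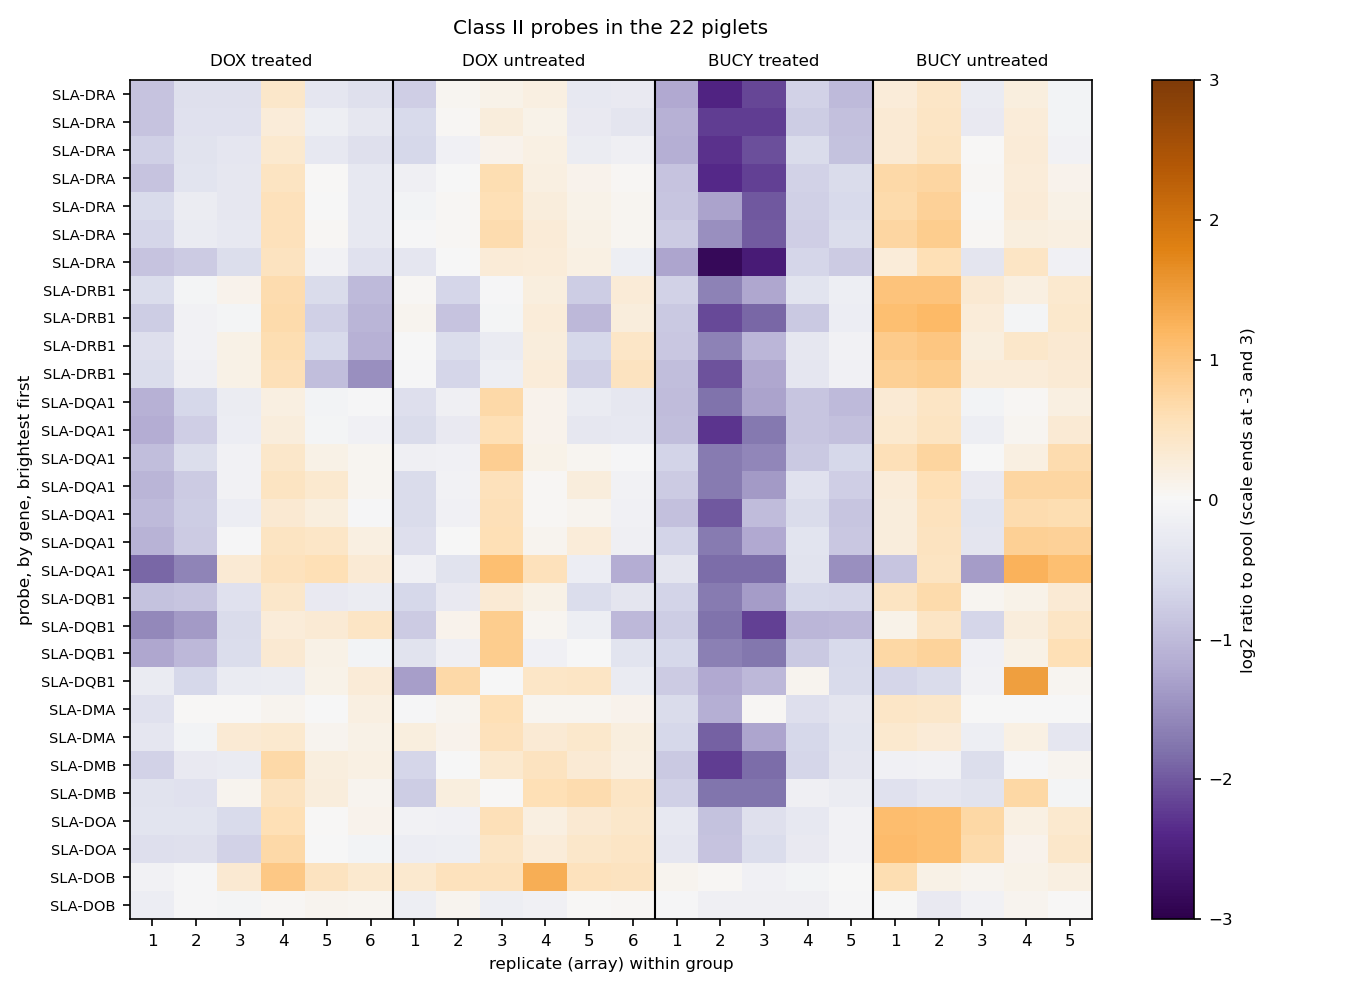
Log2 ratio to the pool of the 30 class II probes (rows, by gene, brightest first) in the 22 piglets (columns, by group and replicate); purple is below and orange above the pool, and the colour scale ends at -3 and 3. The BUCY treated columns are mostly purple in the DR, DQ and DM rows, darkest in replicates 2 and 3, where SLA-DRA measured -2.45 and -2.15.

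The BUCY effect exceeded the DOX effect for part of the family. The difference of the effects, tested in the same model, was called lower for 9 of 30 probes, against 3.14% of all tested probes called lower and 7.15% called in either direction. The median over the 30 probes was -1.18. By gene, SLA-DRA (-1.41, SE 0.383, limma adjusted p = 0.0279), SLA-DQA1 (-1.12, SE 0.315, adjusted p = 0.0338) and SLA-DQB1 (-1.17, SE 0.336, adjusted p = 0.0380) passed. SLA-DRB1 (-1.33, SE 0.410, adjusted p = 0.0520) did not, nor did SLA-DOA (-0.78), SLA-DMB (-0.88), SLA-DMA (-0.49) and SLA-DOB (0.03). The calls were not stable: 0 probes passed without BUCY treated replicates 2 and 3, with slide as a block or with median centring, and 2 to 16 with a single array left out. The median over the 30 probes was smaller in size without those replicates (-0.78) and with the slide block (-0.72), and larger with median centring (-1.54). Doses and sampling times were not matched here, and the effects come from separate experiments.

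Untreated piglets of the 2 experiments were compared as a background. The 30 probes had a median difference of 0.28, BUCY untreated minus DOX untreated, and 25 of 30 were higher in BUCY untreated piglets. The median was 0.19 without DOX untreated replicate 1 and 0.02 with median centring. Limma called 0 of 30, against 27.1% of all tested probes, and the groups overlapped for all 30, against 19.5% of all probes without overlap. At an unadjusted p under 0.05 there were 7 of 30, against 37.3% of all probes. SLA-DRB1 came closest (0.74, interval 0.14 to 1.34, limma adjusted p = 0.0639), with 5 of 5 BUCY untreated piglets above the DOX untreated mean. Counts under other settings lay between 0 and 6. The experiment and anything that differed between experiments cannot be told apart here.

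In the 4 DR and DQ genes and in SLA-DMA and SLA-DOA, the group means ran, from lowest to highest, BUCY treated, DOX treated, DOX untreated and BUCY untreated. For SLA-DMB and SLA-DOB the order was BUCY treated, BUCY untreated, DOX treated and DOX untreated. No neighbouring pair of these orders that was tested differed past the threshold, except BUCY treated and BUCY untreated for SLA-DMB. BUCY treated and DOX treated piglets, neighbours in the first order, were not compared by a test, nor were BUCY untreated and DOX treated piglets, neighbours in the second. The SLA-DRA ranges of the treated groups, -2.45 to -0.70 after BUCY and -0.88 to 0.41 after DOX, overlapped.

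The genes varied together between piglets. Over the 22 arrays, which share normalisation and the drug groups, SLA-DQA1 and SLA-DQB1 correlated at r = 0.95, and at 0.92 with group means taken out. SLA-DRA correlated with SLA-DQA1 and with SLA-DQB1 at 0.92. SLA-DRB1 followed its partner SLA-DRA less closely (r = 0.79, and 0.66 with group means out). Within a piglet, SLA-DRB1 minus SLA-DRA ranged from -0.55 to 0.54 in DOX treated and from -0.69 to 0.77 in DOX untreated piglets. It ranged from 0.31 to 0.92 in BUCY treated and from -0.01 to 0.75 in BUCY untreated piglets. SLA-DQB1 minus SLA-DQA1 was tighter, from -0.38 to 0.34 over the 22 piglets. SLA-DOB was least like the others over the 22 arrays, with r from 0.35 (SLA-DRB1) to 0.67 (SLA-DMB). With group means out its range, 0.17 to 0.63, was near that of SLA-DMA, 0.17 to 0.70.

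Probes of one gene mostly gave one pattern. Pairwise r over the 22 arrays was 0.94 to 1.0 for SLA-DRA, 0.95 to 0.99 for SLA-DRB1 and 0.99 for SLA-DOA. It was 0.76 to 0.99 for SLA-DQA1, 0.92 for SLA-DMB, 0.80 for SLA-DMA, 0.42 to 0.94 for SLA-DQB1 and 0.27 for SLA-DOB. The dimmest SLA-DQB1 probe and the SLA-DOB probes thus carry least of the shared pattern. Probes of one gene share their RNA and are not replicates.

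Of the other genes of the pathway, few could be named on the array. Over the 2657 tested genes with a symbol, 11.7% were called lower and 15% higher after BUCY, and 1.17% lower and 0.753% higher after DOX. In the list for class II transcription 1 of 8 genes had a tested probe: NFYB, a subunit of the factor NF-Y that binds class II promoters, fell after BUCY (-0.39, limma adjusted p = 0.0313) and was at 0.08 after DOX (adjusted p = 0.787). CIITA and RFX5 were not analysed here. In the list for peptide loading and turnover 5 of 13 genes were tested, of which 3 fell after BUCY, against 11.7% of genes with a symbol, and 0 were called after DOX, with medians of -0.70 after BUCY and 0.27 after DOX. The median of all tested genes with a symbol was 0.03 after BUCY and -0.03 after DOX. The invariant chain CD74 measured -0.83, -1.62, -0.87, 0.21 and 0.28 in BUCY treated piglets, against 0.59, 0.63, -0.02, 1.59 and 0.98 in BUCY untreated piglets. The groups overlapped through treated replicates 4 and 5 and untreated replicate 3. The CD74 difference was -1.32 (SE 0.362, 2.50-fold lower, limma adjusted p = 0.0149). CTSB, a lysosomal protease, was 2.15-fold lower (adjusted p = 0.00214) and IFI30, the lysosomal thiol reductase that opens disulfide bonds of antigens, 1.62-fold lower (adjusted p = 0.00547).

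Among 7 tested interferon gamma genes 2 fell after BUCY, among them JAK2, a kinase of the interferon gamma receptor (-0.39, limma adjusted p = 0.0442), and 0 were called after DOX. Over genes with a symbol 11.7% fell after BUCY, and a count of 2 in so short a list is not a result about the list. IFNG itself was well above background on 10 of 22 arrays and was not called for either drug. Of 9 tested class I genes 3 fell after BUCY, against the same 11.7%: B2M, the class I light chain (-1.55, adjusted p = 2.38e-04), SLA-5 (-1.14, adjusted p = 0.0123) and SLA-3 (-0.86, adjusted p = 0.0222). None of the 9 was called after DOX, where 1.17% of genes with a symbol were called lower and 0.753% higher. Of 5 costimulation genes ICOS, a costimulatory receptor of T cells, fell after BUCY (-0.71, adjusted p = 0.0141), and 0 were called after DOX. These lists were chosen with results of the same data known.

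Markers of the cells that carry class II or meet it moved as follows. Of 11 T and NK cell markers 7 were tested. Of these 6 fell after BUCY, against 11.7% of genes with a symbol, and 3 after DOX, against 1.17%. Their mean log2 ratio was -1.17 to -0.80 in BUCY treated and -0.34 to 0.36 in BUCY untreated piglets, and -0.62 to 0.22 in DOX treated and 0.25 to 0.61 in DOX untreated piglets. Among them CD3E fell after BUCY (-1.37, limma adjusted p = 6.30e-05) and after DOX (-0.71, adjusted p = 0.0355). Of 7 B cell markers 1 was tested: CD79A, part of the B cell receptor, fell after DOX (-0.74, adjusted p = 0.0195) and was at -0.23 after BUCY (adjusted p = 0.358). Its log2 ratio was -0.37 to 0.05 in DOX treated and 0.04 to 1.35 in DOX untreated piglets, which just overlapped. It was -0.55 to -0.18 in BUCY treated and -0.22 to -0.04 in BUCY untreated piglets. CD79A was well above background on 18 of 22 arrays. It was lower in BUCY untreated than in DOX untreated piglets (-0.67, limma adjusted p = 0.00378). The defining B cell marker MS4A1 was well above background on 3 of 22 arrays.

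Of 7 dendritic cell markers 2 were tested. XCR1, the receptor of cross-presenting dendritic cells, fell after BUCY (-0.63, limma adjusted p = 0.00430), while CCR7 was at -0.01 (adjusted p = 0.987). The mean of both ranged from -0.73 to 0.10 in BUCY treated and from -0.34 to -0.01 in BUCY untreated piglets. Of 7 monocyte and macrophage markers 4 were tested. CD14, the endotoxin coreceptor, rose after BUCY (0.81, adjusted p = 0.0127) and DOX (1.26, adjusted p = 0.00104), as did the scavenger receptor CD163 (1.44, adjusted p = 1.58e-04, and 1.31, adjusted p = 4.63e-04). Over genes with a symbol 15% rose after BUCY and 0.753% after DOX. AIF1, a calcium-binding protein of macrophages, fell after BUCY (-0.54, adjusted p = 0.0415), and MRC1, the mannose receptor, was not called. The mean of the 4 was -0.54 to 0.19 in BUCY treated and -1.11 to -0.48 in BUCY untreated piglets. Of 5 tested enterocyte markers 2 fell after BUCY, against 11.7% of genes with a symbol: APOA1 (-1.88, adjusted p = 0.0169) and ANPEP (-0.99, adjusted p = 0.0162). FABP1 (0.54), FABP2 (-0.02) and APOA4 (-0.05) were not called. The enterocyte mean was -2.01 to 1.08 in BUCY treated and -0.14 to 0.76 in BUCY untreated piglets. The part of these cell types in the class II result was not tested.

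The genes whose pattern was most like the mean of the 8 class II genes over the 22 arrays, among 2649 genes with a symbol, were XCL1 (r = 0.93), PIK3CG (0.91), CD96 (0.89), PIK3R5 (0.89), C14H10orf128 (0.89) and KLRK1 (0.87). XCL1 is a chemokine, PIK3CG and PIK3R5 are subunits of a phosphoinositide 3-kinase, and CD96 and KLRK1 are receptors of lymphocytes. With group means out the order was PIK3CG (0.83), XCL1 (0.81), TLR4 (0.74), KLRK1 (0.73), HOPX (0.73) and LY86 (0.73). CD74 ranked 26 with groups in and 61 with group means out. These correlations describe arrays that share the pool, the normalisation and the groups.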

How the data were processed

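Total RNA of the small intestine was hybridised with Cy5 against a Cy3 pool of all samples on 22 dual-colour Agilent pig arrays (7 slides, 3 scan days), with no dye swap, per the labels. Per the file headers, the deposited scanner files hold median spot and background intensity from Agilent Feature Extraction 10.7.3.1, a log10 ratio of processed signals, and other columns of quality flags. The authors' value table holds log2 ratios of Cy5 to Cy3; limma is named in the submitters' processing notes and no source used here gives the steps. That table followed normexp, loess and quantile normalised ratios at r of 0.995 to 1.00 with slopes of 0.993 to 1.01 per array and column medians of 0.00 to 0.02. It was used as an alternative to the scanner files.

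Median intensities, deposited by the authors, were corrected by normexp (offset 50), normalised by loess within arrays and fitted with limma 3.58.1 in R 4.3.3. Accessions were joined to RefSeq genes, and 6700 probes (15.4%) received 1 of 3029 symbols. Probes well above background in Cy5 on at least 5 arrays were tested. A model with a mean for each of the 4 groups (residual df 18, prior df 3.31) yielded 4 two-sided comparisons, with Benjamini-Hochberg adjustment over 31758 probes and a threshold of 0.05. The code of the fit was run on simulated data with independent noise, the same SD in all groups and no slide effect. That run cannot check the calls on these arrays. Genes are represented by their brightest probe. The rule for named genes takes all SLA-D genes, CD74, CIITA, RFX5 and CTSS where tested, up to 3 called genes of a list by smallest p, and the 6 symbols most like the class II mean; CTSS was not analysed here, and 1 gene each of the interferon gamma and B cell lists is not reported here by name. The members, lists and tests were chosen with earlier results of these data known. Replicate numbers follow the array order and name arrays only. The replicate is the piglet. Alternatives changed the background correction, normalisation, the Cy3 channel, the filter, the slide and scan day blocks, the samples, the weights and the probe. Python 3.11.15 and matplotlib 3.10.9 drew the figures.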

Additional observations from a re-analysis of the deposited data

Results flagged for a closer look

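In 4 of the 32 gene and group combinations checked by Dixon's test at 95%, 1 piglet stood far from the rest of its group; chance gives about 1 in 20. SLA-DOB measured 1.30 in DOX untreated replicate 4, with the nearest piglet at 0.53, and 0.63 in BUCY untreated replicate 1, with the nearest at 0.20. SLA-DMA measured -0.44 in DOX treated replicate 1, with the nearest at -0.01, and 0.59 in DOX untreated replicate 3, with the nearest at 0.09.

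The BUCY effect differed from the DOX effect by a test of the difference itself for SLA-DRA (-1.41, limma adjusted p = 0.0279), SLA-DQA1 (-1.12, adjusted p = 0.0338) and SLA-DQB1 (-1.17, adjusted p = 0.0380). The adjusted p ranged from 0.00875 to 0.0560 for SLA-DRA, from 0.00985 to 0.0736 for SLA-DQA1 and from 0.0232 to 0.0816 for SLA-DQB1 with a single array left out.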

How the results depend on the processing

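Counts of called class II probes were 0 of 30 after DOX under every setting run. After BUCY they were 17 to 26 (24 to 26 with 1 array left out), with 25 in the deposited table, and the 7 called genes kept their direction under all settings. The difference of effects gave 9 probes in the main setting, 0 with median centring, 0 with slide as a fixed block, 0 without BUCY treated replicates 2 and 3, 1 without the 6 arrays whose titles carry a suffix, and 2 to 16 with 1 array left out. Those outside 1.5 times the main count were BUCY treated replicates 4 (16), 5 (15), 2 (2) and 3 (3), BUCY untreated replicates 1 (3), 2 (2) and 5 (5), DOX treated replicates 3 (5), 4 (4) and 5 (4), and DOX untreated replicates 1 (2), 2 (4), 5 (4) and 6 (5). The untreated comparison gave 0 probes, 1 with Agilent's log ratios, 2 with scan day as a block, 2 without the suffixed arrays, 3 without BUCY treated replicates 2 and 3, 6 with array weights, 4 with only the groups compared, and 0 to 1 with 1 array left out.

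Signs turned only in differences that were not called in the main setting. For SLA-DOB in the difference of effects they were -0.0857 (deposited table), -0.13 (Agilent ratios), -0.18 (Cy5 alone), -0.0918 (quantile between arrays, added after seeing the data), -0.0257 (mean of probes) and -0.0814 (dimmer probe), and -0.105 to 0.153 with 1 array left out. For SLA-DMA between untreated groups they were -0.27 (median centring), -0.0917 (slide fixed), -0.0439 (slide random), -0.11 (mean of probes), -0.24 (dimmer probe), and -0.0524 to 0.106 with 1 array left out. SLA-DQA1 there was -0.00961 with median centring. The dimmer SLA-DOB probe was 0.0393 after DOX, and SLA-DRB1 after DOX was -0.261 to 0.0701 with 1 array left out. The cause was not tested.

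Median centring shifted the median BUCY difference of all probes to -0.15 and that of the class II probes to -1.95. With it 83.4% of all BUCY calls, 65.3% of the calls on the difference of effects and 68.2% of the untreated calls were lower, against 52.2%, 43.9% and 53.5% in the main setting. Calls over all probes were 336 for DOX, with 120 (median centring), 209 (Cy5 alone), 771 (without BUCY treated replicates 2 and 3), 1935 (array weights), 1139 (only the groups compared) and 176 to 525 (1 array left out). For BUCY they were 6067, with 3518 (slide fixed), 2266 (without suffixed arrays), 1853 (without replicates 2 and 3), 1462 (only the groups compared) and 3417 to 8724 (1 array left out). For the difference of effects they were 2271, with 150 (median centring), 1299 (Cy5 alone), 661 (without suffixed arrays), 1426 (without replicates 2 and 3) and 1524 to 3581 (1 array left out), and for the untreated groups 8616, with 5378 (median centring). No paired analysis was possible because the replicate numbers follow the array order and the labels pair no piglets. Signal near background limits SLA-DOB.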
